A study of Mus musculus with 8 samples.

Results

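In mouse aorta, 10 genes of the cell-cycle brake were examined, found by gene symbol among the 21859 genes counted in each library. They are the Cip/Kip inhibitors of cyclin-dependent kinases (*Cdkn1a*, *Cdkn1b* and *Cdkn1c*), the Ink4 inhibitors (*Cdkn2a*, *Cdkn2b*, *Cdkn2c* and *Cdkn2d*), the p53 gene *Trp53*, the retinoblastoma gene *Rb1* and *Lmnb1*, which encodes lamin B1. RNA was sequenced from whole aortas of 4 *ApoE*-/- mice and 4 wild-type (WT) C57BL/6 mice, all male, 40 weeks old and kept on a normal chow diet, with 1 library per mouse. *ApoE*-/- mice carry a germline deletion of apolipoprotein E in every cell, have high plasma cholesterol and develop atherosclerosis, so the comparison asks which of these genes differ in level between an atherosclerosis-prone and a control aorta. The libraries were stranded and depleted of ribosomal RNA, and the values are whole-aorta averages over all cell types of the vessel.

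Cyclin-dependent kinases (CDKs) bound to cyclins phosphorylate the retinoblastoma protein, which then releases E2F factors and lets a cell enter S phase. Ink4 proteins bind CDK4 and CDK6, whereas Cip/Kip proteins bind a wider range of cyclin and CDK complexes, and p53 induces *Cdkn1a* after DNA damage. In senescence, a lasting exit from the cell cycle, *Cdkn2a* and *Cdkn1a* are classical markers that rise, *Lmnb1* is a marker that falls, and cells secrete cytokines, chemokines and proteases.

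Between 23240995 and 23940156 read pairs were counted on genes in *ApoE*-/- mice and between 18375898 and 21664598 in WT mice, and the genotypes did not overlap in this depth. Expression is given as CPM, in which the counts of a library are scaled to a common total after edgeR's TMM correction. *Apoe* itself was at 14.7 to 36.3 CPM in the knockout and 536 to 857 CPM in the control libraries, as their labels say. Summed CPM of 12 contractile smooth muscle markers was 6124 in *ApoE*-/- replicate 1 and at least 15142 in the other *ApoE*-/- mice, against 13521 to 25031 in WT mice. The same replicate had 3941 summed CPM of 10 markers of sympathetic neurons and nerve glia, where the other 7 mice had 118 to 1055. Replicate 1 of the *ApoE*-/- mice therefore stood apart, and log2 fold changes that moved by more than 1.5 times or turned in sign without it are given both ways.

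Of the 10 genes, 9 passed the filter on low counts and 1 of these, *Cdkn1c*, differed between genotypes in edgeR's quasi-likelihood F test with Benjamini-Hochberg adjustment over all 15077 genes tested (adjusted p under 0.05). Over all genes tested, 70 passed this threshold, which is 0.464%, and 14 of them were lower in *ApoE*-/- mice, which is 0.0929%. DESeq2 and limma-voom also called 1 of the 9 genes each, where DESeq2 called 4.29% and limma-voom 0.192% of the genes each tested. The median log2 fold change of the 9 genes was −0.01, and that of all genes tested was 0.05. An unadjusted p under 0.05 was reached by 2 of the 9, *Cdkn1c* and *Cdkn1b*, and by 11.4% of all genes tested. Values of the 2 genotypes did not overlap for 1 of the 9 genes, compared with 8.71% of all genes tested. The exception to the filter, *Cdkn2a*, had 1 to 9 counts per library and is described by its counts.

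**Figure D1:**
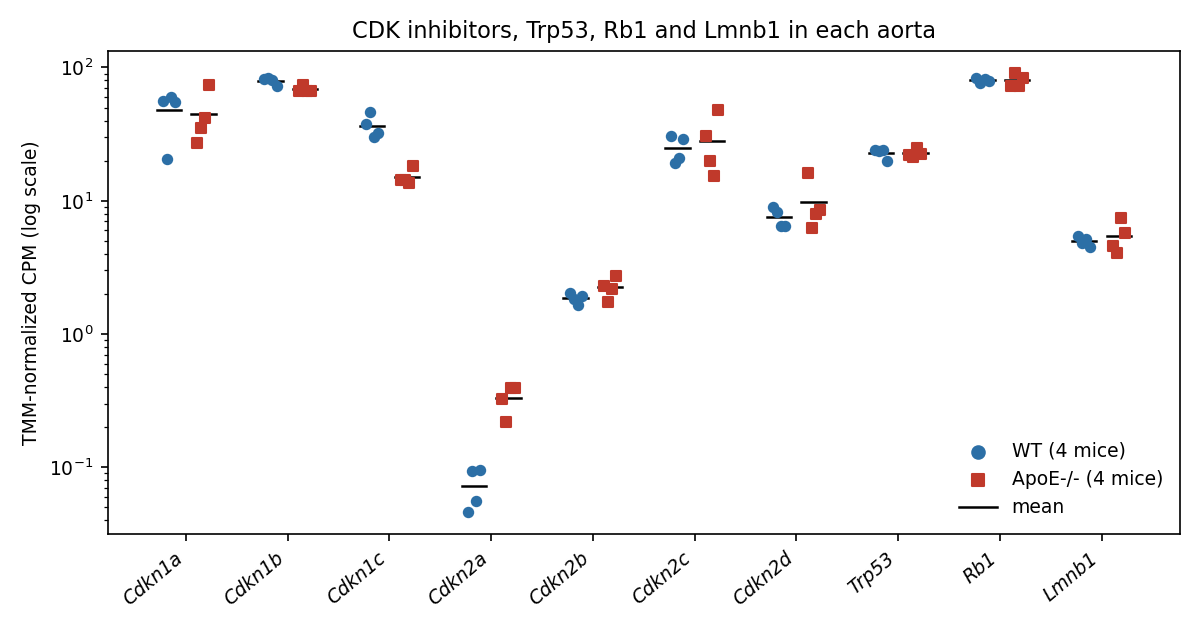
CPM (log scale) of the 10 genes in each of 4 WT (circles) and 4 ApoE-/- (squares) aortas, with a line at each mean. Cdkn1c lay between 30.2 and 46.0 CPM in WT mice and between 13.7 and 18.4 CPM in ApoE-/- mice, Cdkn2a had under 0.4 CPM in every mouse, and the 8 other genes overlapped between genotypes.

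*Cdkn1c* (ENSMUSG00000037664.13) encodes p57Kip2, an inhibitor that is expressed from the maternal chromosome. The gene lies on the minus strand of chromosome 7 of GRCm38 from 143458339 to 143461050, 123.8 Mb from *Apoe* on the same chromosome. It had 14.3, 14.4, 13.7 and 18.4 CPM in replicates 1 to 4 of the *ApoE*-/- mice and 37.4, 46.0, 30.2 and 32.2 CPM in the 4 WT replicates. The highest *ApoE*-/- value was thus well under the lowest WT value, and WT mice spread more than *ApoE*-/- mice. In counts of read pairs this was 314 to 423 in *ApoE*-/- mice and 545 to 982 in WT mice. The means were 15.2 ± 2.14 CPM (SD, n = 4) and 36.4 ± 7.04 CPM (SD, n = 4), so *Cdkn1c* fell to 0.417 of its WT mean. Its log2 fold change was −1.26 (SE of 0.16, 95% interval −1.64 to −0.88, edgeR adjusted p = 0.0379). In a bulk sample, fewer cells that express a gene and less RNA per cell cannot be told apart.

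The log2 fold change of *Cdkn1c* stayed between −1.37 and −1.13 when each mouse was left out in turn, and the call did not. In 1 of these 8 fits, that without *ApoE*-/- replicate 1, which called 3.91% of all genes tested, the edgeR adjusted p was 0.0126. In the other 7 it ranged from 0.0584 to 0.146, and in these 7 fits edgeR called 0 to 17 genes of the whole table. With all 8 mice and no block, the adjusted p was 1.09e-08 in DESeq2 and 0.0418 in limma-voom.

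**Figure D2:**
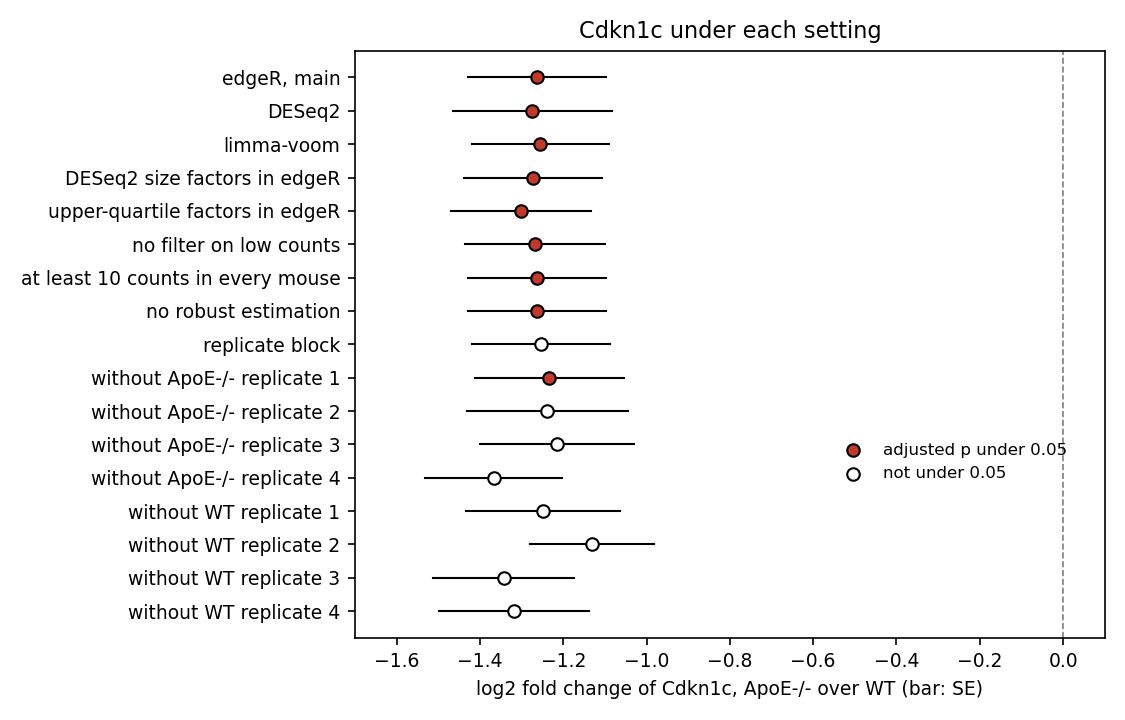
Log2 fold change of Cdkn1c, ApoE-/- over WT, with its standard error under the main fit and each alternative, with filled points where the adjusted p was under 0.05. All values lay between −1.37 and −1.13, and 8 of the 16 alternatives had an adjusted p that was not under 0.05.

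By RT-qPCR on aortas of further mice, the study reported *Cdkn1c* as significantly lower in *ApoE*-/- than in WT mice. The primer pair it listed for *Cdkn1c* is shown here because it locates an amplicon within the coding part of the gene. Both primers matched Cdkn1c-201 exactly and gave an amplicon of 118 bp, which 3 of the 5 annotated transcripts hold, whereas the counts are summed over the gene. The forward primer lies in exon 2 (chr7:143459885-143459904 in GRCm38), and the reverse primer spans exons 2 and 3 (chr7:143459243-143459807), with the bases that pair with exon 3 in capitals. Both are written 5′ to 3′.
Cdkn1c forward: cgaggagcaggacgagaatc
Cdkn1c reverse: GAAGAAGTcgttcgcattggc
The annotation places *Gm44732* on the opposite strand of the *Cdkn1c* locus. The libraries were strand-specific, and counts of *Gm44732* were not analysed here.

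Marker lists of the cells of the vessel gave 0 calls in edgeR and limma-voom in each of 9 lists, and the sums of 2 lists did not overlap between genotypes. Summed CPM of 12 macrophage markers was 526 to 2403 in *ApoE*-/- mice and 283 to 417 in WT mice, with 12 of 12 markers above 0 on the log2 scale (12 with an unadjusted p under 0.05, 9 called by DESeq2). Summed CPM of 9 cardiac muscle markers was 164 to 363 in *ApoE*-/- mice and 426 to 731 in WT mice, with 0 of 9 above 0 (7 with an unadjusted p under 0.05, 5 called by DESeq2). The sums of the other 7 lists overlapped. Endothelial markers summed to 1875 to 2798 CPM in *ApoE*-/- mice and 2627 to 3232 CPM in WT mice, with 1 of 12 above 0 (7 with an unadjusted p under 0.05, 6 called by DESeq2). All 10 fibroblast markers and all 10 lymphocyte markers tested were above 0, with medians of 0.48 and 0.91 (3 and 4 with an unadjusted p under 0.05, 2 and 0 called by DESeq2). The fibroblast sum was 6638 CPM in *ApoE*-/- replicate 1, below the 6991 to 8052 CPM of WT mice, and 10506 to 15408 CPM in the other 3 *ApoE*-/- mice, above them. Of 12 adipocyte markers, 2 were above 0, with a median of −0.39 (0 with an unadjusted p under 0.05, 0 called by DESeq2). No marker was at 0 in every mouse. The part of these cells in the *Cdkn1c* difference was not tested.

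*Cdkn1b* (ENSMUSG00000003031.14, chromosome 6, 134920401 to 134925513) encodes p27Kip1, an inhibitor of quiescent cells that is controlled largely through protein turnover. It had 66.2, 74.0, 66.9 and 66.5 CPM in replicates 1 to 4 of the *ApoE*-/- mice and 82.0, 83.9, 81.0 and 72.4 CPM in the 4 WT replicates. Only *ApoE*-/- replicate 2 reached the WT range, where it lay above WT replicate 4. In log2 units *Cdkn1b* differed by −0.22 (SE of 0.09, 95% interval −0.43 to −0.02), with an unadjusted p of 0.0342 and an edgeR adjusted p of 0.37. The difference did not pass the threshold in edgeR, DESeq2 (adjusted p = 0.209) or any alternative.

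*Cdkn1a* (ENSMUSG00000023067.14, chromosome 17, 29090976 to 29100727) encodes p21, the inhibitor induced by p53. It had 27, 35.4, 42.0 and 74.3 CPM in replicates 1 to 4 of the *ApoE*-/- mice and 56.0, 20.7, 59.7 and 55.2 CPM in the 4 WT replicates. The highest value came from *ApoE*-/- replicate 4 and the lowest from WT replicate 2, and the ranges overlapped broadly. On the log2 scale the difference was −0.10 (SE of 0.40, 95% interval −1.02 to 0.82, edgeR adjusted p = 0.962), so a change of up to 1.77-fold higher or down to 0.493 of the WT level lies within the interval. Without *ApoE*-/- replicate 4 it was −0.46, and without *ApoE*-/- replicate 1 it was 0.08, both past no threshold.

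Levels of different genes were compared per length, as CPM per kb of annotated exon. *Cdkn1c*, *Cdkn1b* and *Cdkn1a* had means of 17.9, 17.5 and 13.5 CPM per kb in WT mice, with overlapping ranges. In *ApoE*-/- mice the means were 7.44 for *Cdkn1c*, 15.0 for *Cdkn1b* and 12.6 for *Cdkn1a*. *Cdkn1c* made up 30.0% to 48.2% of the Cip/Kip sum in WT mice and 20.2% to 24.0% in *ApoE*-/- mice. The Cip/Kip sum itself was 46.8 to 52.1 CPM per kb in WT mice and 29.2 to 44.5 in *ApoE*-/- mice. Without *Cdkn1c*, the sum of the other two was 24.3 to 34.6 in WT mice and 22.1 to 35.5 in *ApoE*-/- mice, so the ranges overlapped. These shares and sums hold the *Cdkn1c* values already given and are a description.

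**Figure D3:**
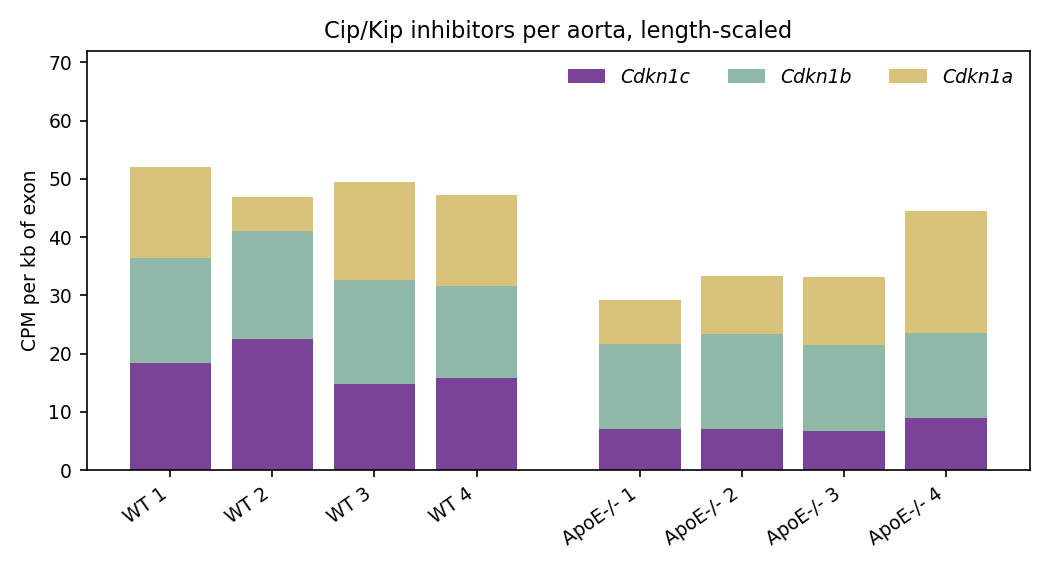
Stacked CPM per kb of exon of Cdkn1c, Cdkn1b and Cdkn1a in each of 4 WT and 4 ApoE-/- aortas. The Cdkn1c segment was 14.8 to 22.5 CPM per kb in WT mice and 6.71 to 9.0 in ApoE-/- mice.

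*Cdkn2a* (ENSMUSG00000044303.6, minus strand of chromosome 4, 89274471 to 89294653) encodes 2 unrelated proteins from separate first exons that join the same second exon. Transcript Cdkn2a-201, with the first exon nearer to the shared one, encodes the CDK inhibitor p16Ink4a, and Cdkn2a-202 encodes p19Arf, which binds MDM2 and so stabilizes p53. The last 20 bases of each first exon (lower case) and the first 20 of the shared exon (capitals) are shown because the counts are summed over the gene and cannot tell these products apart. They were read from the GENCODE M21 transcripts, 5′ to 3′ on the transcribed strand.
Cdkn2a-201: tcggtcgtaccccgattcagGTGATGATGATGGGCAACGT
Cdkn2a-202: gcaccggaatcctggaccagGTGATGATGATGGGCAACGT
The first exons lie at chr4:89281986-89282192 and chr4:89294334-89294653, and the shared exon of 341 bp at chr4:89276645-89276985. All of the shared exon is coding in Cdkn2a-201, and the part at chr4:89276669-89276985 is coding in Cdkn2a-202.

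*Cdkn2a* had 8, 5, 9 and 9 counts in replicates 1 to 4 of the *ApoE*-/- mice and 1, 2, 1 and 2 counts in the 4 WT replicates. Every *ApoE*-/- library thus held more counts than any WT library, but all WT libraries were at or under 3 counts. Summed, this was 31 against 6 counts, a ratio of 4.54 after scaling to library size, with an exact conditional binomial 95% interval of 1.86 to 13.3 that covers counting error only. In CPM, the exact permutation test over the 70 assignments of mice gave p = 0.0286 (two-sided), the smallest p it can give. Of 1070 genes with 20 to 60 counts over the 8 mice, 64 were higher in *ApoE*-/- mice without overlap, which is 5.98%. *Cdkn2a* did not pass the filter on low counts. With that filter removed its log2 fold change was 2.09 (SE of 0.44, edgeR adjusted p = 0.0862), and DESeq2 gave an adjusted p of 0.133, so it was not called by either.

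*Cdkn2b* (ENSMUSG00000073802.5, chromosome 4, 89306299 to 89311039) encodes p15Ink4b and lies beside *Cdkn2a* in the region whose human counterpart is a risk locus for coronary artery disease. It had 2.27, 1.75, 2.18 and 2.73 CPM in replicates 1 to 4 of the *ApoE*-/- mice and 2.02, 1.83, 1.66 and 1.91 CPM in the 4 WT replicates. Its log2 fold change came to 0.27 (SE of 0.20, 95% interval −0.19 to 0.72, edgeR adjusted p = 0.739). Thus 3 *ApoE*-/- mice lay above all WT mice and 1 lay within their range, and the difference did not pass the threshold.

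*Cdkn2c* (ENSMUSG00000028551.14, chromosome 4, 109660876 to 109667189) encodes p18Ink4c. It had 30.4, 19.9, 15.3 and 47.7 CPM in replicates 1 to 4 of the *ApoE*-/- mice and 30.4, 19.2, 21.1 and 28.9 CPM in the 4 WT replicates. The 2 extreme values were both from *ApoE*-/- mice, and the WT range lay inside theirs. The log2 fold change of 0.19 (SE of 0.35, 95% interval −0.61 to 0.99, edgeR adjusted p = 0.9) became −0.19 without *ApoE*-/- replicate 4.

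*Cdkn2d* (ENSMUSG00000096472.2, chromosome 9, 21288410 to 21291407) encodes p19Ink4d, a protein distinct from p19Arf. It had 16.2, 6.25, 8.02 and 8.55 CPM in replicates 1 to 4 of the *ApoE*-/- mice and 8.90, 8.24, 6.48 and 6.51 CPM in the 4 WT replicates. Apart from *ApoE*-/- replicate 1 the genotypes shared a range. The log2 fold change of 0.37 (SE of 0.30, 95% interval −0.31 to 1.06, edgeR adjusted p = 0.76) was 0.01 without that mouse.

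Per kb of exon, *Cdkn2c* and *Cdkn2d* made up most of the Ink4 signal in both genotypes. *Cdkn2c* held 59.6% ± 5.76 (SD, n = 4) of the Ink4 sum in WT mice and 55.1% ± 11.1 in *ApoE*-/- mice, and *Cdkn2d* held 25.3% to 38% and 21.3% to 43.8%. *Cdkn2a* held 0.412% ± 0.162 in WT mice and 1.64% ± 0.669 in *ApoE*-/- mice. The neighbours *Cdkn2a* and *Cdkn2b* were the lowest of the 10 genes per length in both genotypes, *Cdkn2a* at 0.062 CPM per kb in WT and 0.283 in *ApoE*-/- mice and *Cdkn2b* at 1.33 and 1.61. In WT mice the order from the top was *Cdkn1c*, *Cdkn1b*, *Cdkn1a*, *Rb1*, *Cdkn2c*, *Trp53*, *Cdkn2d*, *Lmnb1*, *Cdkn2b* and *Cdkn2a*. Neighbours overlapped among the first 4 and between *Trp53* and *Cdkn2d*, and the ranges of the other neighbours were separate. In *ApoE*-/- mice *Cdkn1c* stood at rank 5, below *Cdkn1b*, *Rb1*, *Cdkn1a* and *Cdkn2c*, and neighbours overlapped except below *Trp53* and below *Cdkn2b*.

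*Trp53* (ENSMUSG00000059552.13, chromosome 11, 69580359 to 69591873) encodes the factor that induces *Cdkn1a* and is controlled mainly as a protein. It had 22.2, 21.3, 24.8 and 22.4 CPM in replicates 1 to 4 of the *ApoE*-/- mice and 23.9, 23.5, 24.2 and 19.8 CPM in the 4 WT replicates. The ranges overlapped, with *ApoE*-/- replicate 3 above every WT mouse and WT replicate 4 below every *ApoE*-/- mouse. *Trp53* had a log2 difference of −0.01 (SE of 0.10, 95% interval −0.25 to 0.23, edgeR adjusted p = 0.983). The interval spans 0.84 to 1.17 of the WT level, and without *ApoE*-/- replicate 1 the difference was 0.00073.

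*Rb1* (ENSMUSG00000022105.6, chromosome 14, 73183673 to 73325822) encodes the protein that holds E2F factors and is the target of CDK4 and CDK6. It had 72.2, 91.4, 72.7 and 83.9 CPM in replicates 1 to 4 of the *ApoE*-/- mice and 83.6, 77.0, 81.5 and 79.5 CPM in the 4 WT replicates. *Rb1* had a log2 difference of −0.01 (SE of 0.10, 95% interval −0.24 to 0.23, edgeR adjusted p = 0.993), and the WT range lay inside that of *ApoE*-/- mice. Without *ApoE*-/- replicate 1 the difference was 0.04. The locus overlaps *Rcbtb2* and *Lpar6* on the opposite strand, and the libraries were strand-specific. It also overlaps *Gm17233* and *Mir687* on the same strand, where strand does not separate reads, and how pairs in that overlap were counted was not tested.

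*Lmnb1* (ENSMUSG00000024590.8, chromosome 18, 56707813 to 56753424) encodes a protein of the nuclear lamina. It had 4.55, 4.02, 7.45 and 5.69 CPM in replicates 1 to 4 of the *ApoE*-/- mice and 5.42, 4.82, 5.21 and 4.50 CPM in the 4 WT replicates. *ApoE*-/- mice held both the lowest and the highest value. Between genotypes *Lmnb1* differed by a log2 value of 0.12 (SE of 0.22, 95% interval −0.38 to 0.62, edgeR adjusted p = 0.893), so a level down to 0.771 or up to 1.54 of that in WT mice lies within the interval. Without *ApoE*-/- replicate 1 the value was 0.20.

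**Figure D4:**
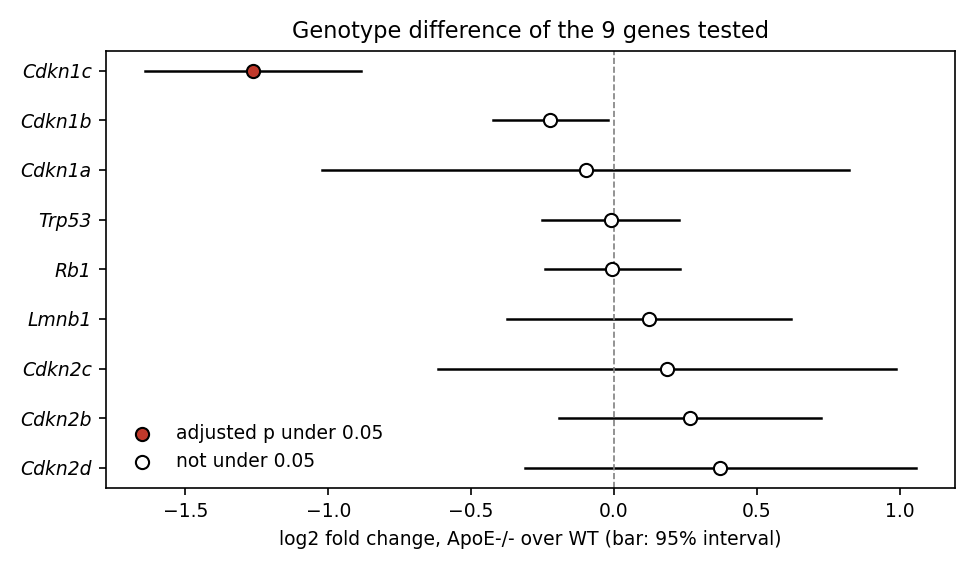
Log2 fold change, ApoE-/- over WT, of the 9 genes tested, with 95% intervals from edgeR and a filled point where the adjusted p was under 0.05. The interval of Cdkn1c reached from −1.64 to −0.88 and that of Cdkn1b from −0.43 to −0.02, and the other 7 spanned 0.

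Hand-written lists of genes around these 10 were then read for their counts and medians. The list of p53 targets also holds genes that act on or with p53, such as *Mdm4*. Of its 29 genes tested, edgeR called 0, DESeq2 1 and limma-voom 0, and 4 had an unadjusted p under 0.05 (3 higher and 1 lower). Without *ApoE*-/- replicate 1, edgeR called 1, where it called 3.91% of all genes tested in that fit. Their median log2 fold change was 0.06, next to 0.05 for all genes tested. *Mdm2*, whose product degrades p53, averaged 59.5 ± 3.15 CPM (SD, n = 4) in WT and 58.4 ± 6.98 CPM in *ApoE*-/- aortas. Log2 fold changes were −0.10 for *Mdm4*, the partner of MDM2, 0.17 for the p53 target *Ccng1*, −0.10 for *Phlda3* and 0.40 for *Eda2r*, with edgeR adjusted p from 0.715 to 0.929. Without *ApoE*-/- replicate 1, *Mdm2* was at 0.05, *Mdm4* at −0.02, *Phlda3* at −0.22 and *Eda2r* at 0.63 on this scale, none of them called. *Zmat3*, a p53 target that encodes an RNA-binding protein, had 85.9 CPM in *ApoE*-/- replicate 1 and 34.3, 43.4 and 55.0 CPM in the other *ApoE*-/- mice, against 33.9 to 38.9 CPM in WT mice (log2 fold change 0.59, SE of 0.26, edgeR adjusted p = 0.455, and 0.29 without replicate 1). The target that DESeq2 called was *Pmaip1*, which encodes the cell-death protein Noxa and is named after its value was seen. It had 1.10 to 2.08 CPM in *ApoE*-/- mice and 0.388 to 0.749 CPM in WT mice, without overlap (log2 fold change 1.56, SE of 0.31, adjusted p = 0.0724 in edgeR and 0.0062 in DESeq2). Of the other 3 with an unadjusted p under 0.05, also named afterwards, *Gadd45a* and *Psrc1* were higher and *Sesn2* lower, and no tool called them.

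Downstream of the inhibitors, edgeR called 0 of 12 genes of the RB and E2F family (3 with an unadjusted p under 0.05) and DESeq2 and limma-voom called 0 each. It called 0 of 17 cyclins, CDKs and their regulators (4 with an unadjusted p under 0.05, 3 higher and 1 lower), as did DESeq2 and limma-voom. The medians of these lists were 0.00 and 0.05 on the log2 scale. *Rbl1* and *Rbl2*, relatives of *Rb1*, had log2 fold changes of 0.16 and −0.05 (0.04 for *Rbl2* without *ApoE*-/- replicate 1), and *E2f1* of 0.50 (SE of 0.20, edgeR adjusted p = 0.389). *Ccnd1* and *Ccnd2*, the D-type cyclins that activate CDK4 and CDK6, had −0.02 and 0.29, and −0.35 and 0.51 without *ApoE*-/- replicate 1. Of the kinases, *Cdk2* had −0.25 and *Cdk4* had 0.08. *Cdk1* and *Ccna2*, named after their values were seen, had log2 fold changes of 0.995 and 0.686. Both were higher in *ApoE*-/- mice without overlap and were called by no tool.

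*Cdk6* had 55.6, 82.1, 84.3 and 79.9 CPM in *ApoE*-/- replicates 1 to 4 and 48.1 to 62.4 CPM in WT mice. Its replicate 1 value lay within the WT range and the other 3 above it. The log2 fold change was 0.47 (SE of 0.15, edgeR adjusted p = 0.243) and, without *ApoE*-/- replicate 1, 0.59 (edgeR adjusted p = 0.0239). In the fit without that mouse edgeR called 3.91% of all genes tested, against 0.464% with all mice.

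Of 19 proliferation markers tested, edgeR called 0, DESeq2 1 and limma-voom 0, and 4 had an unadjusted p under 0.05, all 4 higher in *ApoE*-/- mice. The median was 0.00. *Mki67*, the gene of the Ki-67 antigen of cycling cells, had 11.4, 12.6, 19.7 and 23.0 CPM in replicates 1 to 4 of the *ApoE*-/- mice and 11.4, 4.82, 8.31 and 9.72 CPM in the 4 WT replicates. The lowest *ApoE*-/- mouse lay just under the highest WT mouse, and the log2 fold change was 0.96 (SE of 0.32, edgeR adjusted p = 0.264). The marker that DESeq2 called was *Top2a*, the gene of topoisomerase II alpha of dividing cells, named after its value was seen. It had 6.82, 7.04, 8.23 and 14.1 CPM in replicates 1 to 4 of the *ApoE*-/- mice and 3.09 to 4.86 CPM in WT mice, without overlap (log2 fold change 1.07, SE of 0.28, adjusted p = 0.138 in edgeR and 0.0158 in DESeq2). *Birc5* and *Aurkb*, genes of mitosis with log2 fold changes of 1.08 and 1.02, did not overlap either, were called by no tool and are also named after their values were seen. The list of p27 turnover also holds genes of Foxo transcription factors. It had 0 calls among 10 genes tested in edgeR, DESeq2 and limma-voom, 0 with an unadjusted p under 0.05 and a median of 0.04. *Skp2*, which marks p27 for degradation, had a log2 fold change of 0.21 (SE of 0.15, edgeR adjusted p = 0.712).

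Among 26 Polycomb genes and other regulators of the Ink4/Arf locus, 1 gene passed the threshold and fell, and 22 of 26 had log2 fold changes below 0, with a median of −0.13 and 6330 of 15077 below 0 over all genes tested. The called gene was *Id1*, whose product opposes Ets-driven transcription of p16Ink4a. It had 53.2, 67.1, 54.7 and 59.8 CPM in replicates 1 to 4 of the *ApoE*-/- mice and 111, 112, 100.4 and 84.2 CPM in the 4 WT replicates. The genotypes did not overlap (log2 fold change −0.79, SE of 0.13, edgeR adjusted p = 0.0462), but with all mice and no block the call was lost under 4 alternatives, limma-voom among them. When 1 mouse was left out, the edgeR adjusted p of *Id1* was 0.0216 without *ApoE*-/- replicate 1 and 0.0584 to 0.17 without any 1 of the other 7. *Ezh2*, the methyltransferase that silences the locus, had a log2 fold change of −0.29 (SE of 0.12, edgeR adjusted p = 0.424). *Cbx7* and *Bmi1*, members of the complex that binds this mark or acts with it, had −0.24 and 0.08, and −0.14 and 0.17 without *ApoE*-/- replicate 1. DESeq2 called *Id1* and *Ets1*, the latter with a log2 fold change of −0.36 (SE of 0.09, adjusted p = 0.12 in edgeR and 0.0017 in DESeq2) and named after its value was seen.

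A list of 13 other genes, of which 11 belong to the lamina or nuclear envelope and *Hmgb1* and *Hmgb2* encode chromatin proteins, had 0 calls in edgeR, DESeq2 and limma-voom and 0 with an unadjusted p under 0.05. The median log2 fold change was −0.06 over the 13 and −0.07 over the 11. *Lmna* and *Lmnb2*, the other lamin genes, had log2 fold changes of 0.22 and 0.20, with edgeR adjusted p of 0.802 and 0.675, and *Lmna* had 0.39 without *ApoE*-/- replicate 1.

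The list of senescence-associated secreted factors had the highest median of the 10 lists. Of 37 tested, 6 passed the threshold and all 6 rose, 22 had an unadjusted p under 0.05 and all 22 were higher in *ApoE*-/- mice, and the median log2 fold change was 1.17. Of the 6, *Il6*, *Cxcl2* and *Mmp13* had under 10 counts in every WT mouse and passed the filter through *ApoE*-/- mice, where they were high. Over the other 34 genes there were 3 calls, 19 with an unadjusted p under 0.05 and a median of 0.85, and requiring at least 10 counts in every mouse also left 3 calls. *Il6*, a cytokine, had 71 to 162 counts in *ApoE*-/- mice and 0, 1, 6 and 6 counts in WT mice. *Ccl2* and *Cxcl2*, chemokines for monocytes and neutrophils, rose by 2.15 (SE of 0.25) and 2.24 (SE of 0.34) on the log2 scale, with edgeR adjusted p of 0.0355 and 0.0434. The metalloproteinases *Mmp12* and *Mmp13* reached at most 1.73 and 0.191 CPM in WT aortas but 9.21 to 140 CPM and 2.80 to 23.7 CPM in *ApoE*-/- aortas. *Timp1*, an inhibitor of such proteases, had 6.32 to 8.94 CPM in WT and 37.7 to 108 CPM in *ApoE*-/- aortas. Many of these factors are also secreted by leukocytes, and the macrophage marker sum given above did not overlap between genotypes. Its part in this result was not tested. DESeq2 called 16 of these 37 genes and limma-voom 4. In edgeR the number was 19 without *ApoE*-/- replicate 1, in a fit that called 593 genes (3.91%) in all, 1 without *ApoE*-/- replicate 2 and 0 without any 1 of the other 6 mice.

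**Figure D5:**
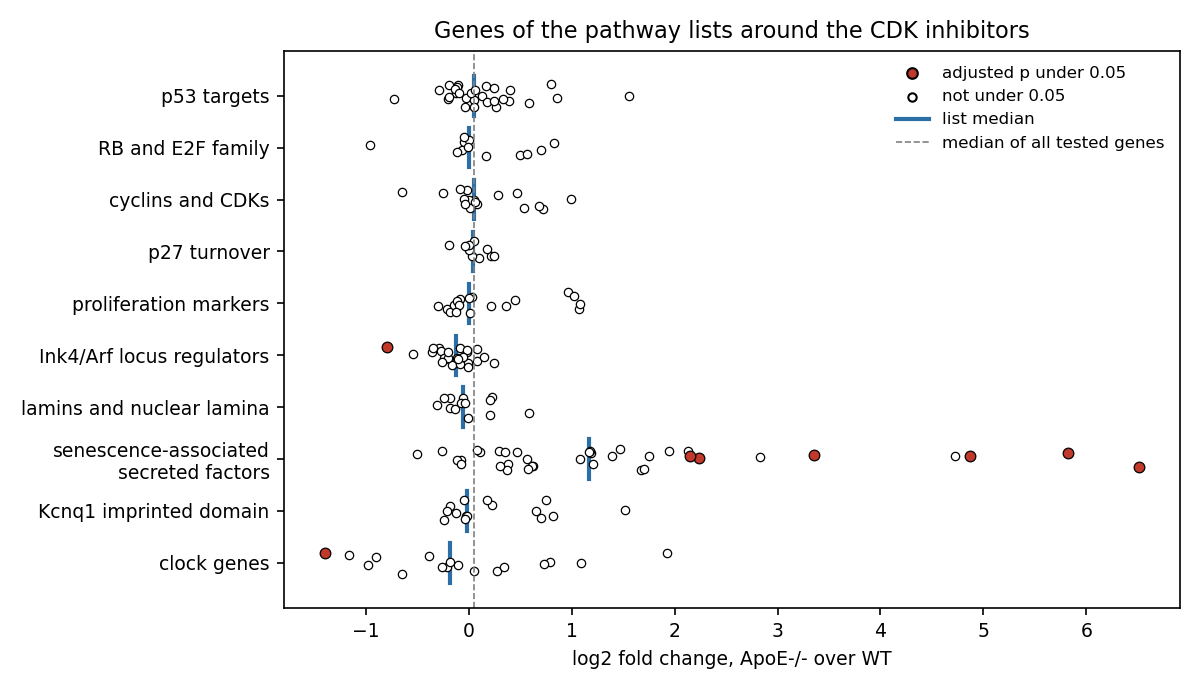
Log2 fold change, ApoE-/- over WT, of each gene tested in the 10 lists, with the list median as a bar, called genes filled and the median of all genes tested (0.05) as a dashed line. The median of the secreted factors was 1.17, and those of the other 9 lists lay between −0.18 and 0.06.

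*Cdkn1c* lies in an imprinted domain beside *Kcnq1*, where a noncoding RNA on the paternal chromosome silences neighbouring genes. Of 15 other genes of this and the adjoining domain that were tested, edgeR, DESeq2 and limma-voom called 0 each, 2 had an unadjusted p under 0.05 (both higher), and the median log2 fold change was −0.02. *Kcnq1*, a potassium channel gene, averaged 6.76 ± 0.491 CPM (SD, n = 4) in WT and 6.21 ± 0.683 CPM in *ApoE*-/- aortas (log2 fold change −0.12, SE of 0.14, edgeR adjusted p = 0.828), and its log2 fold change was −0.19 without *ApoE*-/- replicate 1. *Phlda2*, another maternally expressed gene, had 0 to 2 counts per *ApoE*-/- library and 0 in all WT libraries. *Igf2*, a growth factor gene of the adjoining domain, averaged 0.745 ± 0.085 CPM in WT and 0.631 ± 0.054 CPM in *ApoE*-/- aortas. *Kcnq1ot1* and *H19* were not found by symbol among the genes counted and so were not analysed here.

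Clock genes were listed because *Cdkn1a* is known to vary over the day. Of 17 tested, 1 passed the threshold and fell, 8 had an unadjusted p under 0.05 (3 higher and 5 lower), and the median log2 fold change was −0.18. *Cry1*, a repressor in the clock, had 9.09, 9.36, 8.49 and 9.72 CPM in replicates 1 to 4 of the *ApoE*-/- mice and 16.7, 25.9, 26.4 and 27.6 CPM in the 4 WT replicates (log2 fold change −1.40, SE of 0.17, edgeR adjusted p = 0.0355). Its values did not overlap between genotypes. DESeq2 called 7 of the 17 and limma-voom 1. In edgeR the number was 3 without *ApoE*-/- replicate 1, 1 without WT replicate 1 and 0 without any 1 of the other 6 mice. The fit without *ApoE*-/- replicate 1 called 3.91% of all genes tested. The hour at which aortas were collected is not given in the sources used here, and a part of it in any result was not tested.

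The genes most like *Cdkn1c* and *Cdkn1a* were sought by Pearson correlation of log2(CPM + 0.5) over the 8 mice after subtracting genotype means, as a description. For *Cdkn1c* these were *Snrpa*, a spliceosome gene (r = 0.951), *Sting1*, an adaptor of DNA sensing (0.946), *Olfr558*, an olfactory receptor gene (0.944), *Nphs1*, the gene of nephrin (0.943), and *Ptma*, the gene of prothymosin alpha (0.932). None of these 5 was called, and without subtracting the means r was between −0.625 and 0.78. For *Cdkn1a* they were the complement receptor gene *C5ar2* (0.962), *Hmmr*, a gene of dividing cells (0.955), *Aldh16a1* (0.954), *Dcaf11* (0.951) and *Ahcyl1* (0.941). Without subtracting the means, r was 0.939 to 0.946 for the last 3 and under 0.5 for the first 2. The 8 points share libraries and the genes were picked as the highest over all genes tested.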

How the data were processed

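From strand-specific libraries without ribosomal RNA, the authors counted read pairs on each gene and deposited the counts of each mouse, neither normalized nor pooled. The submitters' processing notes name TopHat2, HTSeq, GRCm38 and mm10, with no versions. Coordinates and exon lengths were taken from GENCODE M21 (GRCm38), where 21817 identifiers were found without their version and 42 were not. With R 4.3.3, counts were filtered by filterByExpr and scaled by TMM, and genotypes were compared by edgeR 4.0.16 (glmQLFit, robust, and glmQLFTest, two-sided), with Benjamini-Hochberg adjustment over 15077 genes. Alternatives were DESeq2 1.42.0, the tool named in the study's methods, limma-voom (limma 3.58.1), other scalings and filters, a fit without robust estimation, a block for the replicate number and fits without each mouse in turn. Scripts were tested on simulated data.

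The 10 genes and all lists were chosen with earlier results of these data known. Named list genes were those past the threshold and a fixed set of partners, together with the 5 genes most like *Cdkn1c* and *Cdkn1a*. *Pmaip1*, *Gadd45a*, *Psrc1*, *Sesn2*, *Cdk1*, *Ccna2*, *Top2a*, *Birc5*, *Aurkb* and *Ets1* fall outside this rule and were named after their values were seen. Marker lists for 9 cell types were summed per mouse. The labels number the mice but name no batch. Pairs on genes made up 32.3% to 35.6% of all pairs in *ApoE*-/- mice and 27.9% to 30.2% in WT mice, without overlap. A part of this share in any result was not tested. Pairs without a gene stayed out of the tests. Intervals on summed counts cover counting error only.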

Additional observations from a re-analysis of the deposited data

Results flagged for a closer look

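In 20 groups of 4 values (10 genes in each genotype), the gap of the outermost mouse was set against Dixon's 95% limit, and 3 groups went beyond it, where chance gives about 1. *Cdkn1a* in WT replicate 2 had 20.7 CPM where the other WT mice had 55.2 to 59.7, a ratio of gap to range of 0.884. *Cdkn1b* in *ApoE*-/- replicate 2 had 74.0 CPM where the others had 66.2 to 66.9, a ratio of 0.919, and this was the value that overlapped the WT range. *Cdkn1c* in *ApoE*-/- replicate 4 had 18.4 CPM where the others had 13.7 to 14.4, a ratio of 0.848, still under every WT value. No cause was tested for these 3 values.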

How the results depend on the processing

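The log2 fold change of *Cdkn1c* kept its sign under all 16 alternatives. With the replicate block it was −1.25 (edgeR adjusted p = 0.122), and leaving out 1 mouse gave −1.37 to −1.13, so the number of called genes among the 10 was 0 with the block and 0 to 1 without 1 mouse. The numbers are not known to pair mice: same-numbered mice correlated at 0.05, −0.458, 0.407 and 0.20 in their deviations, 2 of the 4 numbers matched best with their own, and with the replicate block calls over all genes went from 70 to 2. DESeq2 gave 721, limma-voom 29, and leaving out 1 mouse 0 to 593.

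With DESeq2 the calls were 1 for p53 targets, 1 for proliferation markers, 2 for regulators of the Ink4/Arf locus, 17 for secreted factors (1 of them not tested in edgeR) and 7 for clock genes. For the Ink4/Arf regulators, limma-voom, upper-quartile factors, no filter on low counts, at least 10 counts in every mouse and the replicate block each gave 0. For secreted factors, at least 10 counts in every mouse gave 3, and the replicate block gave 0, as it did for clock genes. Without 1 mouse, the calls were 0 to 1 for p53 targets and for cyclins and CDKs, 0 to 2 for Ink4/Arf regulators, 0 to 19 for secreted factors and 0 to 3 for clock genes. The cause was not tested. Counts for the other lists stayed at 0.

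Signs turned without 1 mouse for genes near 0, none of them called: *Cdkn1a* −0.46 to 0.077, *Cdkn2c* −0.19 to 0.39, *Trp53* −0.074 to 0.019, *Rb1* −0.076 to 0.041, *Lmnb1* −0.069 to 0.24, *Mdm2* −0.090 to 0.049, *Ccng1* −0.082 to 0.30, *Phlda3* −0.24 to 0.053, *Rbl2* −0.13 to 0.042, *Ccnd1* −0.35 to 0.14, *Ccnd2* −0.0086 to 0.51, *Cdk4* −0.038 to 0.12 and *Bmi1* −0.0065 to 0.17. At 4 mice a genotype and 1 to 9 counts, depth limits what can be said of *Cdkn2a*.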
